A study of Arabidopsis thaliana with 18 samples.

Results

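The epithiospecifier protein gene ESP (AT1G54040, chromosome 1) and the lectin gene JAL33 (AT3G16450, chromosome 3) were followed through every RNA fraction of wild-type and rpl24b Arabidopsis seedlings. Each is measured by a single probe set, and they are 2 of the 22746 probe sets of the ATH1 array, an Affymetrix gene chip, and both are protein-coding genes. Both were chosen by their measured difference between the genotypes, ESP in transcript level and JAL33 in translation state, so their genotype differences are given below as values with errors and without a test. The working label for the pair was that one changes in level and the other in ribosome loading. The arrays go against this in part, since JAL33 was also 14.9-fold lower in total RNA. The translation state of ESP read higher by 0.37 ± 0.16 (SE) on the log2 scale, a small difference that was not tested.

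The study compared the rpl24b mutant, which lacks a gene for protein L24 of the large ribosomal subunit, with wild-type plants on 18 arrays from 6 plant samples, 3 per genotype. Total RNA gave the transcript level (TC), and sucrose gradients split a portion of each sample into polysomal RNA (PL), which is bound by many ribosomes, and nonpolysomal RNA (NP), which carries a single ribosome or none. The translation state (TL) of an mRNA is its log2 PL signal minus its log2 NP signal, so a positive TL means a higher signal on polysomes. Both genotypes were grown side by side on Murashige and Skoog agar plates (1% sucrose, 22 °C, days of 16 h light and 8 h dark). Shoots aged 10 to 12 days were cut 6 h after lights on, and the 3 replicates were raised at different times. The mutant carried the single allele stv1-1 in the Wassilewskija (Ws) ecotype. According to the methods that allele also deletes genes next to RPL24B and holds a transgene for the small MYB protein CAPRICE (CPC). The methods place wild-type plants in general in Columbia-0, and the labels name no ecotype for these wild-type samples. The loss of RPL24B, the neighbouring deletion, the transgene and any difference in ecotype therefore cannot be told apart in any value below. Nor can a difference in transcript amount and a sequence difference under the probes. In such bulk samples fewer cells of a type and less RNA per cell cannot be told apart either.

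ESP acts in the glucosinolate defence system of the mustard family. Glucosinolates are sulfur-containing glucosides stored apart from myrosinases, the thioglucosidases that cleave them when tissue is damaged. The released aglycone turns into an isothiocyanate by default, and specifier proteins such as ESP, a Kelch-repeat protein, divert it to epithionitriles and simple nitriles. Arabidopsis ecotypes are known to differ in ESP and in the products they release. JAL33 is a jacalin-related lectin, a family whose carbohydrate-binding domain also occurs in the myrosinase-binding proteins, and it lies beside the related gene JAL34.

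The targeted gene matched the labels. RPL24B (listed as STV1) read 9.98, 10.11 and 10.27 in the wild-type total RNA arrays and 3.79, 3.63 and 3.44 in rpl24b, on the log2 signal scale used throughout. The leaf marker RCA, Rubisco activase, averaged 13.92 in wild type and 13.94 in rpl24b. The other markers of the aerial list were unnamed among the probe sets. Of the root list, PYK10 was near 10.48 and 10.40, and a probe set shared by BGLU22 and BGLU21 rose from 2.93 to 4.81 (adjusted p = 0.00414), and the part of root-type RNA in the results was not tested. Across the array 2.91% of probe sets were called in TC, 2.88% in PL, 3.47% in NP and 0.607% in TL, a call being an adjusted p under 0.05 with at least a 2-fold difference (limma, Benjamini-Hochberg).

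ESP was one of the brightest transcripts of the mutant and a moderate one of the wild type. In total RNA it read 7.38, 6.46 and 7.66 in wild-type replicates 1, 2 and 3 and 13.32, 13.50 and 13.37 in rpl24b. The lowest mutant array stood 5.66 above the highest wild-type array, so the groups did not overlap. Groups lay apart in this direction for 18.5% of all probe sets. The mean went from 7.17 ± 0.63 to 13.39 ± 0.09 (SD, n = 3), a difference of 6.23 ± 0.26 (SE) or 74.9-fold. The SE, here and below, is the moderated error of the limma fit, which draws on the spread of all probe sets. An SD is that of the 3 samples alone. Wild-type ESP was at the 76.1 percentile of the array and mutant ESP at the 99.9 percentile. The 3 mutant arrays differed little among themselves, and most of the spread came from wild-type replicate 2, the lowest of its group in all 3 fractions.

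The same rise was present on and off polysomes. Polysomal ESP read 7.32, 6.85 and 7.54 in wild type and 12.70, 12.60 and 12.74 in rpl24b. Nonpolysomal ESP read 6.85, 6.50 and 7.06 against 11.87, 11.86 and 11.89. Neither fraction showed any overlap of the groups, which held for 18.8% of probe sets in PL and 17.6% in NP in this direction. The difference was 5.44 ± 0.16 (SE, 43.4-fold) in PL and 5.08 ± 0.17 (SE, 33.7-fold) in NP. ESP ranked 2 among all probe sets by its TC increase, 3 by its PL increase and 5 by its NP increase. The gene above it in TC was CPC, the transgene product, with 7.40, and the next below were SK6 with 5.27, AT4G29200 with 4.0 and AT2G15560 with 3.91. By locus number SK6 (AT3G53060) is close to RPL24B (AT3G53020), where the methods place the deletion and the transgene. Whether its rise belongs to that altered locus was not tested.

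JAL33 went the other way, from a bright wild-type signal to one near the middle of the array. In total RNA it read 9.03, 8.86 and 8.71 in wild type and 5.11, 5.05 and 4.75 in rpl24b. The groups were 3.60 apart, and groups lay apart in this direction for 15.7% of probe sets. The means were 8.86 ± 0.16 and 4.97 ± 0.19 (SD, n = 3), a fall by 3.89 ± 0.13 (SE). JAL33 thereby moved from the 92.9 to the 45.2 percentile of the array, and its decrease ranked 17 among all probe sets.

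The fall of JAL33 was deeper on polysomes than off them. Polysomal JAL33 read 8.41, 8.73 and 8.68 in wild type and 5.10, 4.83 and 4.55 in rpl24b. Nonpolysomal JAL33 read 7.64, 7.75 and 7.77 against 5.67, 5.56 and 5.85. Both fractions separated the genotypes without overlap, as 15.6% of probe sets did in PL and 10.1% in NP. The signal was 13.7-fold lower in PL, with a change of -3.78 ± 0.15 (SE), but only 4.08-fold lower in NP, with a change of -2.03 ± 0.14 (SE). In the mutant JAL33 lay at the 48.4 percentile of the polysomal arrays and at the 60.1 percentile of the nonpolysomal arrays. How much of the mutant signal at these levels was hybridization background was not tested.

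**Figure D1:**
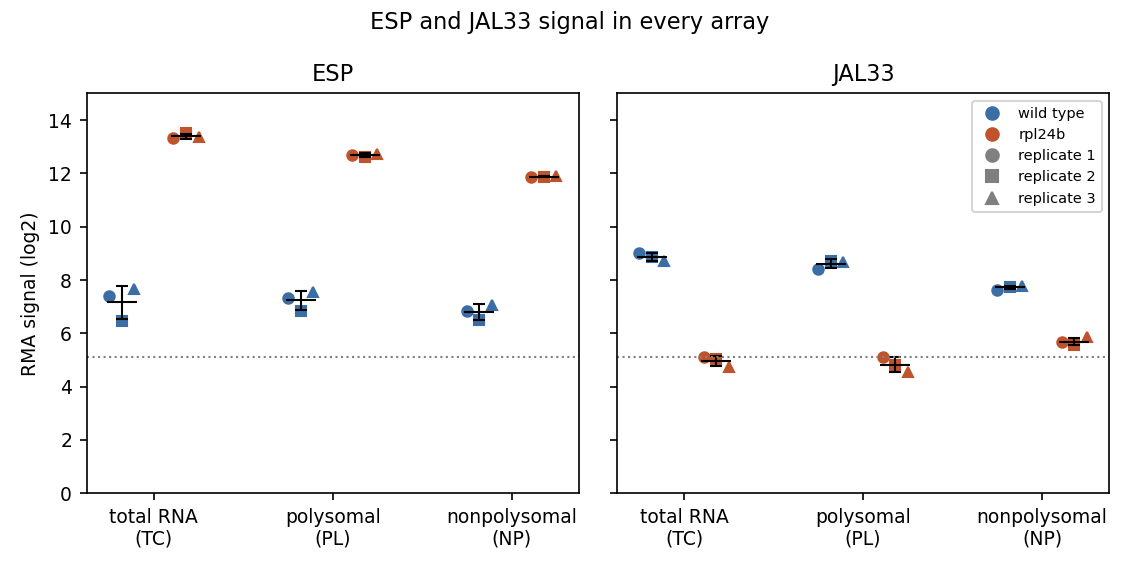
RMA signal (log2) of ESP and JAL33 in each array, by RNA fraction, with wild type in blue and rpl24b in orange; marker shapes are replicates, black bars are the mean ± SD of 3 arrays, and the dotted line is the median probe set's mean signal (5.11). ESP rises from about 7 to between 11.86 and 13.50 in every fraction, while JAL33 falls to the dotted line in TC and PL and stays above it in NP.

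The deeper polysomal loss turned the sign of the translation state of JAL33. Its TL was 0.77, 0.97 and 0.91 in wild type and -0.57, -0.73 and -1.30 in rpl24b. Every wild-type sample was above 0 and every mutant sample below it, with a gap of 1.34 between the groups; 11.0% of probe sets had groups apart in this direction. The mean TL went from 0.89 ± 0.10 to -0.86 ± 0.38 (SD, n = 3), a change of -1.75 ± 0.21 (SE). Within replicates 1, 2 and 3 the change was -1.34, -1.70 and -2.21. In wild type JAL33 was at the 93.5 percentile of TL and in rpl24b at the 6.28 percentile. Expressed as the polysomal part of the summed linear PL and NP signals, JAL33 was 63.1%, 66.2% and 65.2% polysomal in wild type and 40.3%, 37.6% and 28.9% in rpl24b. These percentages are relative, because the signals were normalized between arrays and do not hold the RNA amount of each fraction.

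By the size of its decrease in TL, JAL33 ranked 18 among all probe sets. The larger decreases nearest to it among the probe sets called lower, which made up 0.356% of the array, were AT2G33850 with -1.79, AT1G66100, a thionin-family gene, with -1.78 and AT2G20620 with -1.76. The next smaller were PREP2 with -1.72, AT4G22280 with -1.66 and AT5G10695 with -1.63. AT2G33850 (3.64 in PL, 3.32 in NP) and AT1G66100 (3.37 in PL, 3.28 in NP) were dim in rpl24b. AT2G20620 was dim in wild type (3.32 in PL, 3.29 in NP). How far TL reflects ribosome loading at such signals was not tested.

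The TL of ESP was positive in both genotypes and moved much less. It was 0.48, 0.36 and 0.48 in wild type and 0.82, 0.74 and 0.85 in rpl24b. All 3 mutant samples were above all 3 wild-type samples, by a gap of 0.25, as was the case for 7.08% of probe sets. The change was 0.37 ± 0.16 (SE), and 0.35, 0.38 and 0.37 within the replicates. It was 0.48 with each array centred on its median and 0.30 after quantile normalization. The sum of signals was 58.2%, 56.1% and 58.3% polysomal in wild type and 63.9%, 62.5% and 64.3% in rpl24b. The mean moved from the 82.7 to the 91.5 percentile of TL. The balance of ESP between the fractions within a genotype does not rest on the genotype contrast and was tested against a TL of 0, at which the normalized PL and NP signals are equal. In rpl24b its TL of 0.80 ± 0.11 (SE, n = 3) lay above 0 with an adjusted p of 0.000114 (limma, two-sided, Benjamini-Hochberg over all probe sets). In wild type the TL of 0.44 ± 0.11 (SE) had an adjusted p of 0.00907. In rpl24b 18.8% of probe sets passed this threshold above 0, and the zero itself is set by the normalization of the arrays. The share passing in wild type was not counted, so the wild-type adjusted p has no such share beside it.

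Probe sets with large changes in transcript level varied in their change in TL. Some were dim in a genotype, such as SK6 in wild type (2.22 in PL, 2.24 in NP). AT1G66100 in rpl24b is another (3.37 in PL, 3.28 in NP). What part of their TL changes reflects loading was not tested. The limit of 8-fold in TC was set after the values were seen, and of the probe sets higher by that much only CPC exceeded ESP. Among the 35 probe sets that were at least 8-fold lower in TC, the change in TL ran from -1.85 to 2.74 with a median of 0.06, and JAL33 was number 4 from the bottom. Of the 35, 6 were called lower in TL and 4 higher, beside 0.356% and 0.251% of all probe sets. JAL33 itself was counted among those called lower, a call fixed by its choice. Among the 13 probe sets at least 8-fold higher in TC, the change in TL ran from -3.22 to 0.63 with a median of -0.84. Of these, 5 were called lower, beside 0.356% of all probe sets. ESP, at 0.37, was number 11 from the bottom of these 13. A call of lower was shared between TC and TL by 15 probe sets, 4.67% of those lower in TC and 18.5% of those lower in TL. Over all probe sets 1.41% were called lower in TC and 0.356% in TL.

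**Figure D2:**
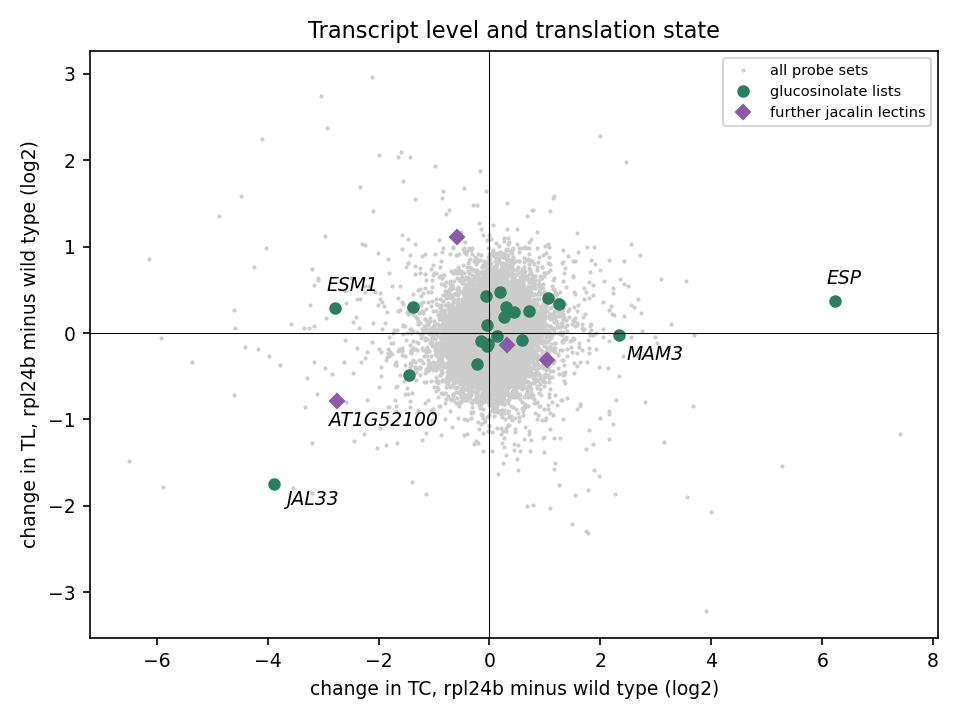
Change in transcript level (x axis) against change in translation state (y axis), rpl24b minus wild type in log2 units, for all 22746 probe sets in grey, the probe sets of the glucosinolate lists in green and further jacalin lectins in purple. ESP lies far right and near 0 on the y axis (6.23 and 0.37), and JAL33 lies low on the left (-3.89 and -1.75).

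The other genes of glucosinolate breakdown and synthesis came from a list of 78 loci, of which 21 had a probe set named here. Apart from ESP and JAL33 these were 19 probe sets. Names came from the platform table for 14 of them, and 2 of those 14 were called higher and 0 lower in TC (1.49% and 1.41% of all probe sets, respectively). The other 5 were named only in the study's lists of changed genes, so that 1 called higher and 3 lower among them is not a rate. In PL 1 of the 14 was called higher and 0 lower, where 1.71% and 1.17% of all probe sets were. In NP the counts of the 14 were again 1 and 0, beside 2.11% and 1.36%, and in both fractions the other 5 held 1 called higher and 2 lower. No probe set of the 19 was called in TL by limma, against 0.607% of the array. The median change of the 19 was 0.13 in TC and 0.19 in TL, beside 0.03 and -0.06 over all probe sets.

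ESM1 fell while ESP rose. ESM1, a GDSL-lipase-like protein that favours isothiocyanates over nitriles and is another gene by which ecotypes are known to differ, read 9.97, 10.03 and 10.11 in wild-type total RNA and 7.12, 7.29 and 7.36 in rpl24b. Its fall of -2.78 ± 0.10 (SE, n = 3) had an adjusted p of 1.16e-06. On polysomes the change was -2.94 ± 0.13 (SE, adjusted p = 3.53e-07), and off them it was -3.23 ± 0.16 (SE, adjusted p = 1.99e-06). Its TL was 1.15 in wild type and 1.44 in rpl24b, a difference of 0.29 ± 0.16 (SE) that did not pass the test (adjusted p = 0.511). ESM1 was named through the study's lists of changed genes.

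PYK10 (BGLU23), a beta-glucosidase of endoplasmic reticulum bodies with myrosinase activity, was the one member of the myrosinase list named here. It averaged 10.48 in wild type and 10.40 in rpl24b total RNA, a difference of -0.07 ± 0.13 (SE, adjusted p = 0.768). Its TL was 1.21 and 1.65 (adjusted p = 0.331), and it was not called in PL or NP either.

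JAL34, a jacalin-related lectin gene that neighbours JAL33, was not called lower. It read 9.78, 9.54 and 9.36 in wild-type total RNA and 9.91, 9.62 and 9.96 in rpl24b, so the groups overlapped. The difference was 0.27 ± 0.14 (SE, adjusted p = 0.235). Its TL averaged 0.08 and 0.27 (adjusted p = 0.756), with wild-type samples at 0.24, -0.07 and 0.07 and mutant samples at -0.12, 0.60 and 0.34. The difference between the JAL33 and JAL34 changes was not tested, since JAL33 was chosen for its own.

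From the jacalin list 4 lectins other than JAL33 had a probe set named here. Of these, 2 were called higher in TC and none lower, beside 1.49% and 1.41% of all probe sets. MBP1, MBP2, PBP1, NSP1, NSP3, NSP4, JAL31, JAL32 and JAL35 of that list had no probe set named here. AT1G52000, annotated as a mannose-binding lectin, read 6.93, 6.44 and 6.86 in wild type and 7.93, 8.06 and 8.03 in rpl24b. It was higher by 1.26 ± 0.14 in TC (SE, adjusted p = 0.000606), by 1.44 ± 0.27 in PL (adjusted p = 0.00464) and by 1.09 ± 0.20 in NP (adjusted p = 0.00937). JAL23 rose by 1.05 ± 0.19 in TC (SE, adjusted p = 0.00679), from a low 2.80 to 3.85, and was not called in PL or NP. Its change dropped below 2-fold, to 0.98, under quantile normalization, to 0.97 when wild-type replicate 1 was dropped and to 0.83 when rpl24b replicate 1 was. The NP change of AT1G52000 was below 2-fold at 0.94 with median centring, 0.93 when wild-type replicate 2 was dropped and 0.99 when rpl24b replicate 3 was. JAL22 was 8.08 and 8.26 in TC (adjusted p = 0.371) and had a negative TL in both genotypes, -1.17 and -0.70 (adjusted p = 0.372).

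Another 4 lectins were added after the values were seen, because the study's lists of changed genes annotate them as mannose-binding or jacalin-type. AT1G52100, AT1G73040 and JAX1 stood in its rpl24b list, so their change here is not independent evidence, and AT3G21380 in that of another mutant. The nearest to JAL33 in behaviour was AT1G52100, a mannose-binding lectin superfamily gene. It read 7.78, 8.14 and 7.62 in wild-type total RNA and 4.97, 5.20 and 5.16 in rpl24b, without overlap, and fell by 2.74 ± 0.14 (SE, adjusted p = 8.68e-06). Its change was -2.87 ± 0.17 in PL (adjusted p = 3.52e-06) and -2.08 ± 0.14 in NP (adjusted p = 1.58e-05). Its TL went from 0.45, 0.21 and 0.21 to -0.93, -0.65 and 0.07, lower in every mutant sample than in any wild-type sample, but the change of -0.79 ± 0.24 (SE) did not pass the test (adjusted p = 0.171). AT1G73040, of the same superfamily, rose by 1.03 ± 0.16 in TC (SE, adjusted p = 0.00344) with wild-type values of 4.89, 4.59 and 5.04 against 5.87, 5.62 and 6.12, a change below 2-fold without wild-type replicate 2 (0.91) or rpl24b replicate 3 (0.90). AT3G21380 was called in no fraction (TC 3.49 and 3.81, adjusted p = 0.238). JAX1, a jacalin-type lectin of antiviral resistance, was dim throughout, at 2.94 and 2.36 in TC, and was called higher in TL (1.11 ± 0.22, SE, adjusted p = 0.0418). That call was lost when any sample but wild-type replicate 2 was dropped: wild-type replicate 1 (0.85), wild-type replicate 3 (1.19), or rpl24b replicates 1, 2 and 3 (1.08, 1.13 and 1.13).

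**Figure D3:**
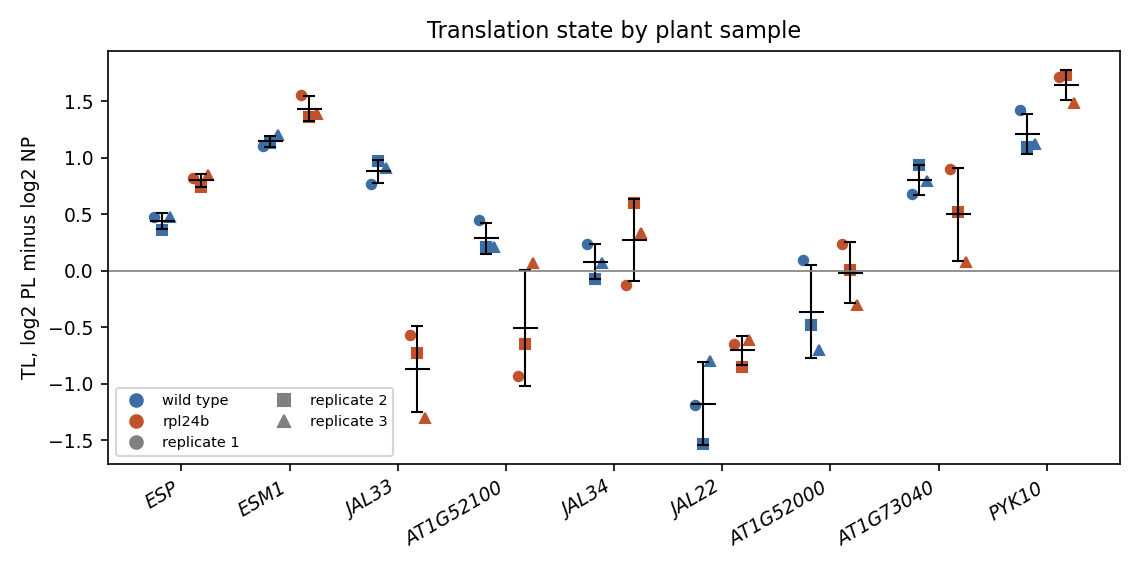
Translation state (log2 PL minus log2 NP) of ESP, ESM1, JAL33, other jacalin-type lectins and PYK10 in each plant sample, wild type in blue and rpl24b in orange, with replicates by marker shape and black bars for the mean ± SD (n = 3). JAL33 is the gene shown whose samples lie wholly above 0 in wild type (0.77 to 0.97) and wholly below 0 in rpl24b (-1.30 to -0.57).

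Among the named genes of glucosinolate synthesis, transport and nitrile breakdown, MAM3 rose in TC, and FMO GS-OX2 and NIT4 fell. MAM3 (listed as IMS2), a methylthioalkylmalate synthase that lengthens the side chain of methionine, read 5.30, 6.74 and 5.70 in wild-type total RNA and 8.45, 8.07 and 8.20 in rpl24b, higher by 2.33 ± 0.31 (SE, adjusted p = 0.00179). The increase was 2.33 in PL and 2.36 in NP, and TL was 0.38 and 0.36 (adjusted p = 0.98). FMO GS-OX2, a flavin monooxygenase that oxidizes the side chain, fell from 6.22, 6.22 and 6.11 to 4.99, 4.54 and 4.90, a change of -1.37 ± 0.13 (SE, adjusted p = 0.000266). The nitrilase NIT4 fell from 6.99, 6.71 and 6.78 to 5.79, 5.24 and 5.09, a change of -1.45 ± 0.18 (SE, adjusted p = 0.00113). All 3 were named through the study's lists of changed genes, so their number is not a rate.

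The remaining members of the pathway were not called in any fraction. Of the core genes, GSTU20, a glutathione transferase, was 10.63 in wild type and 11.09 in rpl24b (adjusted p = 0.0472, under 2-fold), and UGT74B1, which adds the glucose, was 7.99 and 7.95 (adjusted p = 0.828). The methionine aminotransferase BCAT4 was 9.71 and 9.84 (adjusted p = 0.572), and the probe set shared by IMD3 and IMD1 was 8.56 and 8.86 (adjusted p = 0.0919). AT2G25450 was 11.34 and 11.93 (adjusted p = 0.0119, under 2-fold) and AOP1 was 6.98 and 6.82 (adjusted p = 0.448). The glucosinolate transporters GTR1 and GTR2 were 7.65 and 7.42 (adjusted p = 0.211), and 7.22 and 7.94 (adjusted p = 0.0129, under 2-fold).

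Among named loci close to the members by their AGI number, the systematic number that follows gene order, changes went both ways. Within 100 numbers of ESP lay 8 named probe sets, of which 1 was called higher and 1 lower in TC, beside 1.49% and 1.41% of the array. AT1G54050, an HSP20-like chaperone gene next to ESP in this numbering, fell by 2.24 ± 0.10 (SE, n = 3, adjusted p = 3.94e-06), from 6.28 to 4.04. AT1G54120, of unknown function, rose by 1.27 ± 0.10 (SE, adjusted p = 0.000139), from 5.80 to 7.07. The changes of the 8 ran from -2.24 to 1.27 with a median of 0.07. AT1G53945, AT1G53970, AT1G54020 and AT1G54070 were dim, with mean signals of 2.61, 2.68, 2.85 and 3.23, where a fall could hardly be seen. The listed loci AT1G54000, AT1G54010 and AT1G54030 near ESP had no probe set named here.

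Around JAL33, 1 of 6 named probe sets was called in TC, beside 2.91% of the array. It was AT3G16530, a legume-lectin family gene, which rose by 1.75 ± 0.28 (SE, n = 3, adjusted p = 0.00452), from 5.79 to 7.54. The 6 changes ran from -0.52 to 1.75 with a median of 0.09. The listed loci JAL31, JAL32 and JAL35 near JAL33 had no probe set named here. None of the loci around either gene was called in TL by limma, where 0.607% of the array was.

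**Figure D4:**
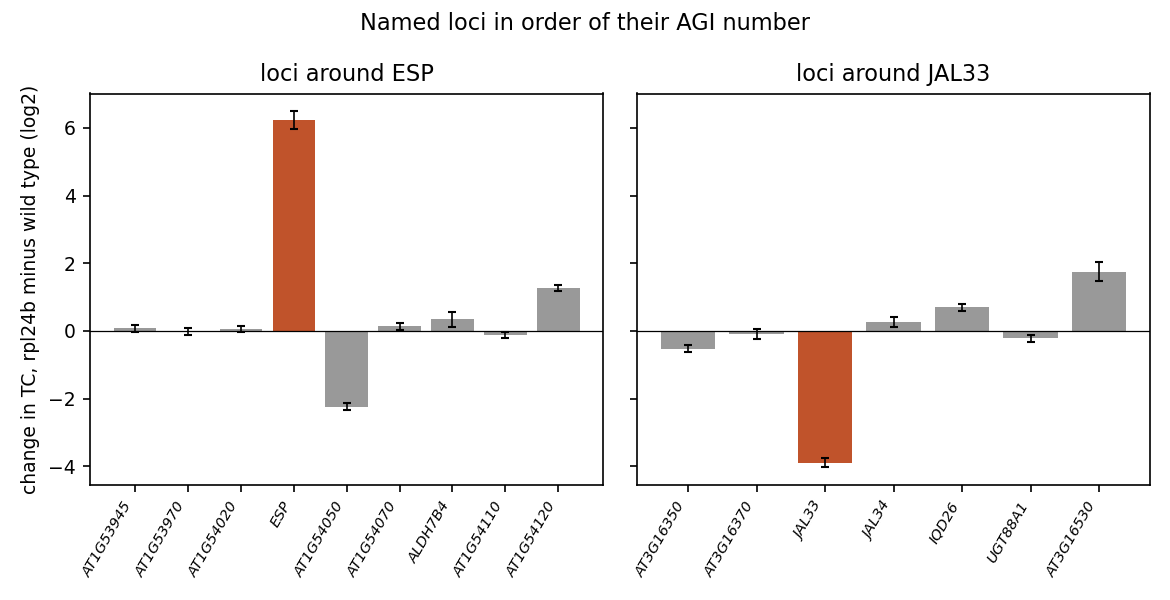
Change in transcript level, rpl24b minus wild type in log2 units, for ESP, JAL33 (orange bars) and the named loci within 100 AGI numbers (grey bars), in AGI order. Whiskers are the moderated standard error of the limma fit. ESP (6.23) stands beside AT1G54050 (-2.24), and JAL33 (-3.89) beside JAL34 (0.27).

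The likeness of other genes to the members was measured by Pearson's r over the 18 arrays, after centring each signal within the TC arrays and within the PL and NP arrays. It was computed among 6348 probe sets of a single named locus with a mean signal at or above the array's median. All points share the same arrays and the same genotype contrast, so these are descriptions. ESP and JAL33 themselves had an r of -0.97. The nearest to ESP were AT3G28500, annotated as acidic ribosomal protein P2C, with an r of 0.976, CPC with 0.973, the acid phosphatase-like AT1G04040 with 0.969, the major facilitator superfamily gene AT5G61520 with 0.968 and the L30 ribosomal protein gene AT3G18740 with 0.956. AT3G28500 rose by 3.68 in TC and 4.61 in PL, whereas AT3G18740 rose by only 0.43 in TC. The r therefore follows the pattern over arrays and not the size of the change.

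The nearest to JAL33 were the lectin-type kinase gene AT4G02410 with an r of 0.979, AT5G24570 with 0.978, RPL24B itself with 0.973, AT4G20480 with 0.972 and the lectin AT1G52100 with 0.972. AT4G02410, AT5G24570, AT4G20480 and AT1G52100 were not called in TL. RPL24B was called lower in TL (-1.48 ± 0.27, SE, adjusted p = 0.0274), with dim rpl24b signals of 3.42 in PL and 3.89 in NP. That call was lost when any sample but wild-type replicate 2 was dropped. AT5G24570, an unknown protein, had a TL of 0.40, 0.44 and 0.17 in wild type and -0.32, -0.05 and -0.74 in rpl24b, a change of -0.70 ± 0.20 (SE, adjusted p = 0.151).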

How the data were processed

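ATH1 arrays were hybridized with total, polysomal and nonpolysomal RNA. The deposited values are log2 signals that the authors obtained with RMA (Robust Multi-array Average), 1 per probe set and array, with replicates not pooled. Array medians were 5.34 to 5.41 in TC and 4.65 to 5.07 in PL and NP, so TC levels are not set against PL or NP levels. Which arrays were normalized together is not given in the sources used here. A deposited log2 TL column equalled PL minus NP to within 0.001. The submitters' processing notes also name affy and MAS5, with no versions. Signals ran from 1.86 to 14.26, and the number of arrays limits the precision.

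Genotypes were compared with limma 3.58.1 in R 4.3.3 (lmFit and eBayes, 3 against 3, no covariate), with Benjamini-Hochberg adjustment over all 22746 probe sets. A call needed an adjusted p under 0.05 and a log2 change of at least 1. The scripts were tested on simulated data with 200 changed probe sets.

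Names came from the platform annotation (13513 probe sets with 1 gene, 503 with several) or from the loci in the study's gene lists (545, including ESP), and 8185 probe sets were unnamed here. Genes named were the members, all measured genes of the specifier, myrosinase and jacalin lists, the called genes and at most 2 others of the further lists, called neighbours, the 5 nearest genes by r and those next to each member in rank. The members and lists were chosen with earlier results of these data known. Sequences and coordinates were not used here.

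Same-numbered replicates were grown together at different times per the labels, so the numbers pair the samples. Correlations of same-numbered deviations were 0.14 to 0.39 in TC, 0.05 to 0.28 in PL, -0.19 to 0.06 in NP and -0.05 to 0.03 in TL. Between different numbers they were -0.36 to -0.03 in TC, -0.24 to 0.12 in PL, -0.14 to 0.16 in NP and -0.03 to 0.08 in TL. The adjusted p-values given come from the fit without this pairing, which only the replicate block took in. Alternatives were median centring, quantile normalization, a trended robust fit, a signal filter, the replicate block and leaving out each sample.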

Additional observations from a re-analysis of the deposited data

Results flagged for a closer look

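Among the members and the genes of the pathway and jasmonate lists, JAL33 was flagged for a translation state of opposite sign in the 2 genotypes. Its change was -1.75. Each of the 3 wild-type samples had a positive TL (0.77, 0.97 and 0.91) and each of the 3 rpl24b samples a negative one (-0.57, -0.73 and -1.30). This difference was not tested, because JAL33 was chosen for it.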

How the results depend on the processing

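The changes of ESP and JAL33 kept their direction in every fraction under each alternative run. The TL change of ESP was 0.48 after centring each array on its median and 0.30 after quantile normalization, and the NP change of JAL33 was -2.18 after centring. With 1 sample left out, the ESP change ran from 5.87 to 6.47 in TC and from 0.32 to 0.40 in TL, and the JAL33 change from -3.97 to -3.78 in TC and from -1.90 to -1.53 in TL. The count of probe sets called in TL, 138, ran from 61 to 145 with 1 sample left out, being 90 without wild-type replicate 1. It was 186 after centring each array on its median and 151 after quantile normalization. Dropping rpl24b replicate 1, 2 or 3 gave 69, 76 and 61 calls, respectively. When the dimmer probe sets, with mean signals below the array's median, were removed, 399 were called in TC and 430 in PL, in place of 661 and 655, since fewer were tested. Fitted with the replicate block, 682 were called in TC and 148 in TL, and all 69 values run for 18 genes called outside the likeness lists kept their side of the threshold. Over these genes 5 values were no longer called and 2 newly called under the other settings, and 31 and 9 with 1 sample left out. No called value turned in sign, while 12 values without a call did, none with a main change above 0.14. With 3 samples per genotype, p-values measure the spread between cultures grown at different times.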

Other observations

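Jasmonate-responsive genes, a further defence list, moved both ways. Of 5 named probe sets 1 was called higher and 2 lower in TC, and none was called in TL by limma, against 2.91% and 0.607% of the array. The 3 probe sets called in TC were named only through the study's lists of changed genes. LOX2, a lipoxygenase of jasmonate synthesis, rose by 1.37 ± 0.19 (SE, n = 3, adjusted p = 0.00236), from 8.73 to 10.10. OPR3, a reductase later in the same route, fell by 1.17 ± 0.23 (SE, adjusted p = 0.0107), from 6.56 to 5.39. The probe set shared by VSP2 and VSP1, vegetative storage proteins, fell by 1.13 ± 0.28 (SE, adjusted p = 0.0249), a call lost without wild-type replicate 1 (-1.10), wild-type replicate 3 (-0.85) or rpl24b replicate 2 (-0.97). PDF1.2, a defensin, was called higher in PL (1.31 ± 0.25, SE, adjusted p = 0.00495) and not in TC (adjusted p = 0.142). It was dim, going from 3.12 to 4.44 in PL. THI2.1, a thionin, was called in no fraction (TC 3.09 and 3.12).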
